A study of Mus musculus with 50 samples.

Results

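The genes described here are 2 hypoxia-inducible factor genes, Hif1a and Epas1, and 8 genes that hypoxia-inducible factors are known to switch on, Vegfa, Car9, Egln3, Bnip3, Ankrd37, Adm, Ndrg1 and P4ha1. They were chosen by name, with earlier results of these data known. Counts of them set beside shares over all genes are therefore descriptions. These 10 are rows of a table of 37701 genes measured in 50 mammary gland tumors. The tumors came from female p53R270H/+WAPCre mice, which were 8 weeks old at the start. All of them carried a mutant p53 allele next to a normal one, and in all of them Cre was driven by the whey acidic protein promoter, which is active in mammary epithelium. The mice were injected under the skin every other day with vehicle, insulin, glargine, X10 or IGF1 until a tumor had reached 1 cm3, and tumors were taken 24 hours after the last injection, 10 per group. Glargine and X10 are insulin analogues, X10 being one with a raised affinity for the IGF1 receptor, and IGF1 stands for insulin-like growth factor 1. Tumors with Untreated in their title are called the vehicle group, and single tumors are given by their titles. The study took tumors with an epithelial to mesenchymal transition-like appearance and a latency near the median of their group.

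Cells sense oxygen through the stability of the alpha subunits of hypoxia-inducible factor, which the genes Hif1a and Epas1 encode. When oxygen is plentiful, prolyl hydroxylases of the Egln family mark these subunits and the von Hippel-Lindau protein directs their breakdown; when oxygen is scarce, they persist, pair with Arnt and bind short elements near their target genes. Their control is thus largely at the protein level, whereas the RNA of the target genes is the usual readout of the pathway. The targets serve blood vessel growth, pH control, mitochondrial turnover, collagen modification and feedback on the pathway itself.

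The core of the element to which hypoxia-inducible factors bind is ACGTG or GCGTG. The RefSeq promoter table (GRCm38.p6), which holds 250 bases before and 50 after a gene's start, had 9 promoters for 8 of the 10 genes, and Epas1 and Ndrg1 were not matched. ACGTG or GCGTG, read on both strands, was found in 8 of the 9 promoters, where 43.8% of the 32851 promoters of the table held either. ACGTG alone was found in 7 of the 9, against 19.6% of all promoters, and the share of all promoters with GCGTG was 32.4%. These matches overlap in places on opposite strands, and they describe letters rather than occupied sites. The stretches with the matches are shown for Bnip3, Ankrd37 and Adm, the 3 genes that varied most closely together, and for P4ha1, whose range was the narrowest of the 8 targets. They run 5′ to 3′ on the strand of the gene, lie before its RefSeq start and outside annotated exons, and carry the matches in capitals. For Ankrd37 that start is an inner one, so its stretch lies within the span of the gene given below.
Bnip3, chr7:138909522-138909638, minus strand: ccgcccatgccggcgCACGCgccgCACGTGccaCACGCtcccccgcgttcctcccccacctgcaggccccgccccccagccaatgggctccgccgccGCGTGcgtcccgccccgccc
Ankrd37, chr8:45999983-46000100, minus strand: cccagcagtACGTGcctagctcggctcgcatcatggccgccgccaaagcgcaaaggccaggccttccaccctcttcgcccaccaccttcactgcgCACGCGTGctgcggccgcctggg
Adm, chr7:110627552-110627622, plus strand: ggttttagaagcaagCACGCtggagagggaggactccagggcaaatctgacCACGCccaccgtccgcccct
P4ha1, chr10:59323118-59323295, plus strand: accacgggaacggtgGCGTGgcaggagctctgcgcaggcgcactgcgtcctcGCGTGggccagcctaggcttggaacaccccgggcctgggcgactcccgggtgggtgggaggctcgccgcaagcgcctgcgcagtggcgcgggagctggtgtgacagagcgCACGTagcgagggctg
The promoter of Bnip3 held 5 matches and that of Ankrd37 held 4, of which the one nearest to the start lies outside the stretch shown. P4ha1 held 3, and Adm held 2, both of them GCGTG on the reverse strand.

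Values are RPKM, reads scaled to gene length and library size. Library size, recovered from the steps in the values, was between 26.6 M and 51.9 M reads, and its correlation with each of the 10 genes was between -0.12 and 0.07. Each of the 10 genes was covered by at least 35 reads in every tumor. Gene lengths behind the RPKM values often were those of a short transcript. They were 480 bases for Car9 and 446 for Bnip3, where the longest coding transcripts have 2023 and 1756, so that deposited levels cannot be compared between genes. All values below are within-gene unless stated otherwise. Rescaled to the longest coding transcript, mean levels were highest for Ndrg1 (76.5 RPKM), followed by Vegfa (42.3), Hif1a (39.0), Bnip3 (34.5), P4ha1 (33.9), Epas1 (13.3), Egln3 (11.2), Adm (9.92), Ankrd37 (5.32) and Car9 (1.96). Summed epithelial markers (Epcam, Krt8, Krt18, Cldn3, Cldn4 and Cdh1) ranged from 10.2 to 3951 RPKM over the tumors, with none of the 6 at 0 in any tumor. A tumor of the insulin group, insulin_13, held salivary gland genes, of which Bpifa2 took 11.3% of its summed RPKM against at most 0.0653% in any other tumor. Without it the insulin medians moved most for Ndrg1 (to 363 RPKM), Bnip3 (101), Adm (7.29) and Ankrd37 (6.32), and the highest insulin level of P4ha1 was 46.2 RPKM. The log2 fold change against vehicle was positive for 4 of the 10 genes with insulin, with or without that tumor, and that of Car9 moved from -0.31 to -0.22.

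Hif1a (ENSMUSG00000021109, chromosome 12, 73901375 to 73947530, plus strand, GRCm38) was expressed in every tumor. Its level had a median of 90.1 RPKM in the vehicle tumors (38.3 to 162.2), 92.1 with insulin (74.8 to 121.0), 112.4 with glargine (37.6 to 160.2), 129.8 with X10 (77.4 to 198.1) and 98.3 with IGF1 (36.9 to 141.9). The X10 group stood highest and held the tumor with the highest level, X10_116, but the ranges of all groups overlapped. Against vehicle, the log2 fold change with X10 was 0.57 ± 0.24 (SE, n = 10 per group), with an unadjusted p of 0.0230 and an adjusted p of 0.382 in limma. It therefore did not pass the test across all genes. With insulin, glargine and IGF1 the log2 fold changes of Hif1a were 0.10, 0.16 and 0.02, each within 1 standard error of 0 (0.24). In bulk tumors, fewer cells of a type and less RNA per cell cannot be told apart, here and for all genes below.

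Epas1 (ENSMUSG00000024140, chromosome 17, 86753700 to 86833410, plus strand) encodes the second oxygen-labile alpha subunit, which is prominent in endothelium. Its median level was 12.4 RPKM in the vehicle group (4.49 to 20.3), 13.7 with insulin (10.2 to 17.5), 13.5 with glargine (10.0 to 26.5), 12.9 with X10 (8.93 to 23.3) and 10.7 with IGF1 (7.78 to 30.0). The groups overlapped almost fully. IGF1 was the lowest group and yet held the highest tumor, IGF1_158, at 30.0 RPKM where the next IGF1 tumor had 11.7. No comparison with vehicle exceeded a log2 fold change of 0.26 ± 0.22 (SE, glargine, adjusted p = 0.857 in limma). The glargine tumors also had the highest adipocyte markers (median sum 185 RPKM, vehicle 52.0). Over the 50 tumors Epas1 went with these at r = 0.41 and rho = 0.32 (adjusted p = 0.0515 and 0.237, permutation test). With endothelial, epithelial and adipocyte marker scores together as covariates, the glargine log2 fold change was 0.10. The part of any one cell type in it was not tested.

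Egln3 (ENSMUSG00000035105, chromosome 12, 54178981 to 54203860, minus strand) encodes a prolyl hydroxylase that marks the alpha subunits and is itself induced by them. Its median level was 11.1 RPKM in the vehicle tumors (1.71 to 23.7), 10.4 with insulin (2.42 to 14.0), 10.9 with glargine (5.29 to 18.8), 12.5 with X10 (3.73 to 34.1) and 10.0 with IGF1 (4.62 to 20.0). Group medians differed far less than tumors did, and the SD of log2 level was widest with vehicle (1.11) and narrowest with glargine (0.54).

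Vegfa (ENSMUSG00000023951, chromosome 17, 46016993 to 46032369, minus strand) encodes the main ligand that drives blood vessel growth. Its level had a median of 177.2 RPKM with vehicle (76.4 to 272.1), 147.9 with insulin (56.2 to 212.2), 137.8 with glargine (70.9 to 274.1), 186.7 with X10 (74.3 to 622.8) and 174.1 with IGF1 (72.8 to 339.3). Adm (ENSMUSG00000030790, chromosome 7, 110627661 to 110629820, plus strand) encodes adrenomedullin, a peptide that widens vessels. It was the most variable of the 10 genes, with medians of 5.77 RPKM for vehicle (1.25 to 20.7), 5.74 for insulin (2.17 to 14.4), 4.94 for glargine (1.65 to 24.0), 9.94 for X10 (1.77 to 46.8) and 9.53 for IGF1 (2.54 to 30.9). For both vascular genes the tumor X10_100 was the highest of all 50, and the low ends of all 5 groups lay close together.

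Car9 (ENSMUSG00000028463, chromosome 4, 43506966 to 43513729, plus strand) encodes a carbonic anhydrase of the cell surface that helps to control pH. Medians were 5.81 RPKM in the vehicle group (2.67 to 19.3), 4.25 with insulin (3.02 to 17.8), 10.4 with glargine (2.58 to 18.8), 7.87 with X10 (4.65 to 30.4) and 6.35 with IGF1 (3.31 to 13.0). The highest tumor was X10_95, which was also the highest for Egln3. Car9 had the lowest median read number of the 10 genes, 122 per tumor.

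Bnip3 (ENSMUSG00000078566, chromosome 7, 138890836 to 138909519, minus strand) encodes a mitochondrial protein that promotes the removal of mitochondria and cell death. Its medians were 76.0 RPKM for vehicle (38.1 to 267.7), 80.6 for insulin (37.0 to 181.1), 108.9 for glargine (47.7 to 228.3), 159.4 for X10 (66.5 to 675.6) and 135.9 for IGF1 (34.8 to 338.0). Ankrd37 (ENSMUSG00000050914, chromosome 8, 45996902 to 46005707, minus strand), an ankyrin repeat gene known as a direct target, had medians of 2.72 RPKM for vehicle (0.846 to 11.3), 5.13 for insulin (1.16 to 6.95), 4.31 for glargine (1.40 to 14.1), 5.86 for X10 (2.26 to 18.4) and 6.81 for IGF1 (1.55 to 19.6). The X10 and IGF1 groups had the highest medians for both genes, and the lowest tumor of IGF1, IGF1_135, lay below the lowest vehicle tumor for Bnip3. For Ankrd37 the place of X10 rested on insulin_13: without that tumor the insulin median was 6.32 RPKM, above that of X10.

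Ndrg1 (ENSMUSG00000005125, chromosome 15, 66929318 to 66969640, minus strand) is a stress-responsive gene of differentiated cells. It had medians of 347.2 RPKM with vehicle (91.5 to 684.2), 297.1 with insulin (132.8 to 591.7), 347.8 with glargine (209.4 to 646.2), 335.8 with X10 (up to 1719.9, with a lowest tumor between those of insulin and glargine) and 323.0 with IGF1 (216.8 to 698.9). P4ha1 (ENSMUSG00000019916, chromosome 10, 59323296 to 59373304, plus strand) encodes the catalytic subunit of a collagen prolyl hydroxylase. It had medians of 38.8 RPKM with vehicle (18.1 to 84.7), 40.3 with insulin (32.6 to 46.8), 38.2 with glargine (29.9 to 67.5), 45.1 with X10 (25.1 to 109) and 58.6 with IGF1 (26.9 to 79.8). The Ndrg1 medians lay close together, whereas for P4ha1 the IGF1 median was above the highest insulin tumor.

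**Figure D1:**
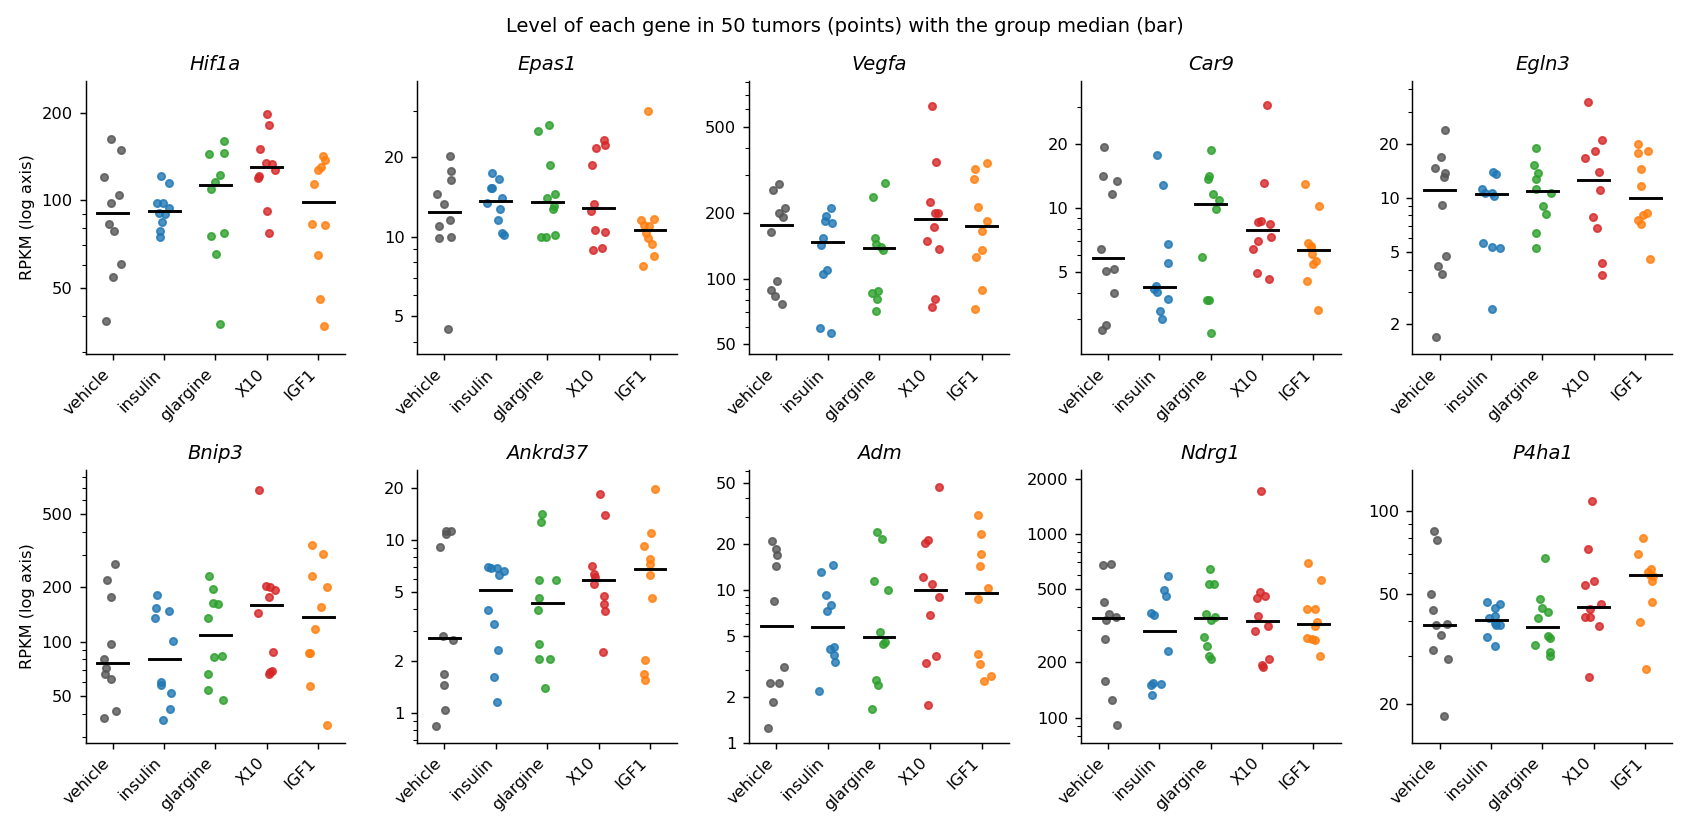
Level of the 10 genes in each tumor by treatment group, RPKM on a log axis; each point is a tumor (10 per group) and the bar is the group median. The groups overlap for every gene, and 1 X10 tumor stands far above the others for Bnip3 (676 RPKM) and Ndrg1 (1720 RPKM).

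The genes varied widely between tumors. Within groups the SD of log2 level ran from 0.17 (P4ha1) to 0.84 (Bnip3) with insulin and from 0.58 (Epas1) to 1.41 (Adm) with vehicle. The SD of log2 level over the 50 tumors was between 0.48 (P4ha1) and 1.20 (Adm), where the median over the 16733 tested genes was 0.42, and all 10 genes were above that median. Ratios of the highest to the lowest tumor were 37.6 for Adm, 23.1 for Ankrd37, 19.9 for Egln3 and 19.4 for Bnip3, and 5.37 for Hif1a. Of the variance between tumors, 4.63% (Adm) to 13.5% (P4ha1) lay between the means of the treatment groups. The median over all tested genes was 9.29%, and 3 of the 10 genes were above it, Hif1a, Bnip3 and P4ha1. Means of 10 tumors differ without any treatment effect too, and these shares were not corrected for that.

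Groups were ordered by their mean log2 level for each gene, and neighbours in that order were compared. Such neighbours are the closest groups by construction, so this step describes the order and does not test which treatments differed. X10 was the highest group for 8 of the 10 genes, glargine for Epas1 and IGF1 for P4ha1. This rested on X10_100: without it X10 was highest for 2 genes, Hif1a and Car9, and IGF1 for 7. With endothelial, epithelial and adipocyte marker scores as covariates X10 was highest for 4. For Egln3, Bnip3 and Ndrg1 the order was X10, IGF1, glargine, vehicle and insulin, and for Ankrd37 and Adm the last 2 were exchanged. Of the 40 neighbouring pairs, 0 had an unadjusted p under 0.05. The smallest p was 0.108, for X10 over glargine in Hif1a (two-sided permutation test with 100000 resamples, adjusted p = 0.988).

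Each compound was next set against vehicle. The 20 tumors from X10 or IGF1, the compounds with the higher IGF1 receptor affinity, were also set against the other 30. At an adjusted p under 0.05 in limma, 0 of the 10 genes were called in any of these comparisons, nor in the test for any difference among the 5 groups. Over all 16733 tested genes the share called was 0% for insulin, 0% for glargine, 0.0657% for X10, 0.00598% for IGF1, 0.155% for X10 and IGF1 pooled and 0.102% for any difference. With limma voom on the recovered reads 0 of the 10 genes were called as well. The smallest adjusted p of the 10 genes was 0.290, for P4ha1 in the pooled comparison. These comparisons share the vehicle tumors, and the pooled one reuses all of them.

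At an unadjusted p under 0.05, 1 of the 10 genes passed for X10 (Hif1a, given above) where 11.0% of all tested genes did. In the pooled comparison 2 of 10 passed, P4ha1 and Bnip3, against 10.5% of all genes. For insulin, glargine, IGF1 and any difference, 0 of 10 passed, and the shares of all genes were 11.1%, 6.23%, 8.84% and 13.1%. The pooled log2 fold change of P4ha1 was 0.35 ± 0.13 (SE, unadjusted p = 0.0117 and adjusted p = 0.290 in limma), and that of Bnip3 was 0.54 ± 0.26 (unadjusted p = 0.0450, adjusted p = 0.458). The Bnip3 difference was 0.42 without X10_100 (unadjusted p = 0.103) and 0.53 without insulin_13 (unadjusted p = 0.0563).

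The direction of the fitted values can be described as follows. In the pooled comparison 9 of the 10 genes had a positive log2 fold change, from 0.13 for Car9 to 0.54 for Bnip3, and Epas1 had -0.08. Their median was 0.32, beside -0.02 over all tested genes, of which 43.6% were positive. With X10 alone 10 of 10 were positive, with a median of 0.38 beside -0.03, and the largest were Ankrd37 (0.70 ± 0.44 SE), Bnip3 (0.65 ± 0.41) and Adm (0.61 ± 0.53). Without X10_100 all 10 stayed positive with a median of 0.31, and these values were 0.53, 0.40 and 0.35, beside 0.54 for Hif1a, 0.11 for Vegfa, 0.13 for P4ha1 and 0.09 for Ndrg1. With IGF1 alone 8 were positive (median 0.30, all genes 0.02), with glargine 8 (median 0.21, all genes 0.02) and with insulin 4 (median -0.04, all genes 0.03). With marker scores as covariates the glargine count was 10 and its median 0.37, and the X10 median was 0.41. Since the target genes vary together between tumors, these counts do not rest on 10 separate observations. The 95% confidence intervals of the X10 comparison reached from -0.46 to 1.67 for Adm and from -0.17 to 1.48 for Bnip3, so changes of a log2 fold change of 1 in these genes lay within the error.

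**Figure D2:**
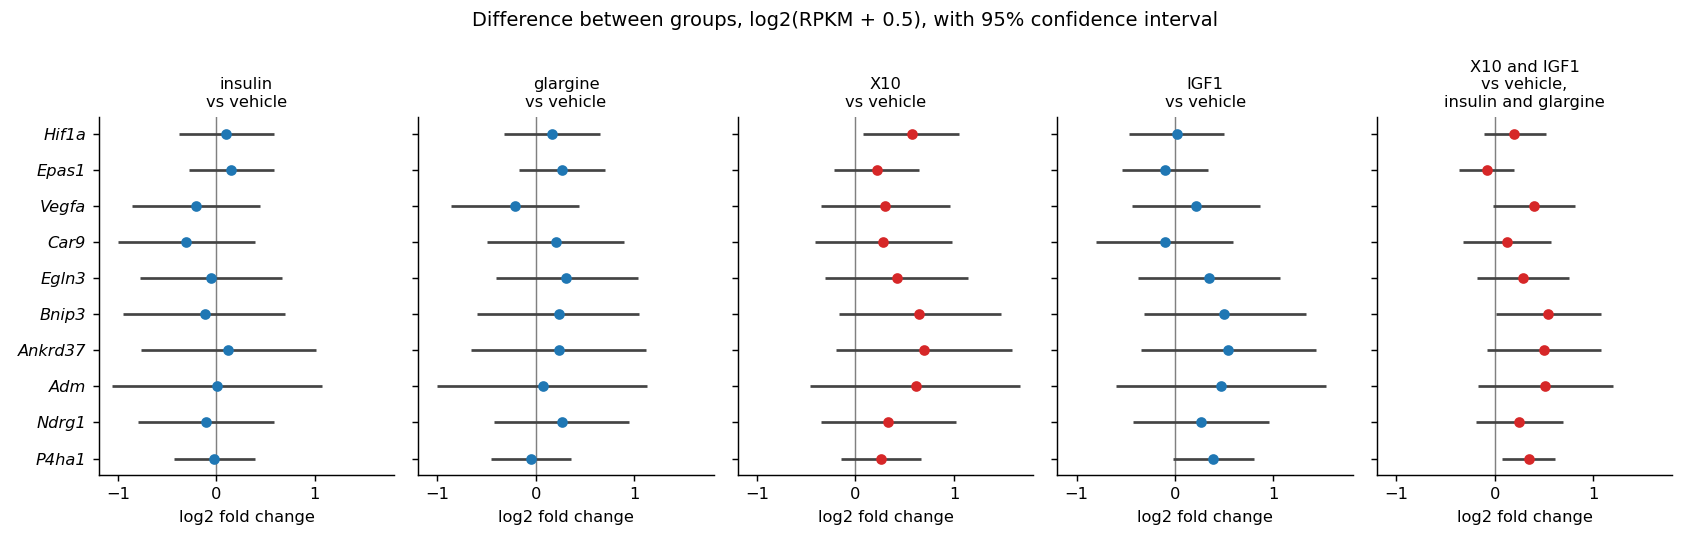
Log2 fold change of each gene (point) with its 95% confidence interval (line) from limma for 4 compounds against vehicle and for the pooled X10 and IGF1 tumors (n = 20) against the others (n = 30). Only Hif1a with X10 and Bnip3 and P4ha1 in the pooled comparison have intervals that leave out 0, and none has an adjusted p under 0.05.

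The wider pathway was covered by 60 further genes that passed the filter, from 5 lists. These lists were also chosen with earlier results of these data known. Among these, 0 were called at an adjusted p under 0.05 in limma in any comparison. Of 36 other known targets, 28 had a positive log2 fold change in the pooled comparison (median 0.16), and 10 passed an unadjusted p of 0.05 in that direction and 0 in the other. Over all tested genes the share that passed and was higher was 2.97%. Most of these targets rose and fell with Bnip3 between tumors (33 of 36 with a positive Spearman rho, median 0.57). The counts of this list therefore do not rest on 36 separate observations, and they are given with X10_100 included. Against vehicle, 4 of the 36 passed and were higher with X10, where 2.75% of all genes were, and 25 were positive. With IGF1 25 of the 36 were positive too, and 3 passed an unadjusted p of 0.05 higher and 1 lower. With glargine 15 were positive (median -0.03) and with insulin 12 (median -0.12), and these 2 groups are part of the reference in the pooled comparison. Over all tested genes 44.4% were positive with X10, 53.4% with IGF1, 54.1% with glargine and 54.5% with insulin. The best placed was Pgk1, an enzyme of glycolysis, with a pooled log2 fold change of 0.40 ± 0.14 (SE, adjusted p = 0.226 in limma). Among the 9 tested regulators of the factors, Hif1an, the asparagine hydroxylase that blocks their activity, had the smallest p of any list gene in the pooled comparison, with a log2 fold change of -0.21 ± 0.06 (unadjusted p = 0.00142, adjusted p = 0.125). With X10 against vehicle the smallest were Plod3 (log2 fold change -0.34, adjusted p = 0.162), a collagen lysyl hydroxylase, Hif1an (-0.28, adjusted p = 0.281) and Ccng2 (0.60, adjusted p = 0.315). With IGF1 they were Higd1a (0.62, adjusted p = 0.376), Plod1 (0.40, adjusted p = 0.394) and Siah2 (0.36, adjusted p = 0.427). With insulin and glargine they included P4hb (log2 fold change -0.33 in both), the partner subunit of P4ha1, with adjusted p of 0.342 and 0.789. Next to it were Plod3 (-0.21) and Bhlhe40 (-0.52) with insulin, and Angptl4 (0.61) and Plod3 (-0.19) with glargine. For any difference among the 5 groups the smallest adjusted p of the lists were 0.241 (Plod3), 0.303 (Plod1) and 0.321 (Hif1an). In the pooled comparison P4ha3 (-0.52, adjusted p = 0.246), another collagen hydroxylase subunit, had the sign opposite to that of P4ha1. Of 8 collagen-modifying enzymes, 5 were positive in the pooled comparison, and of 9 tested VEGF ligands and receptors and 3 adrenomedullin receptor genes, 4 and 2 were. Against vehicle, 2 of the 8 collagen-modifying enzymes were positive with X10, 3 with IGF1, 4 with glargine and 3 with insulin.

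Across tumors the target genes rose and fell together. All 28 pairs of the 8 targets had a positive Pearson correlation of log2 level over the 50 tumors, from 0.31 (Car9 and P4ha1) to 0.89 (Bnip3 and Adm), with a median of 0.61. All 28 had an adjusted p under 0.05 over the 45 pairs computed (two-sided permutation test with 100000 resamples), 27 of them by Spearman rho too. No share over all tested genes under the same threshold is given beside this count, or beside those for Hif1a, Epas1 and the markers below. The tightest were Bnip3 with Adm (r = 0.89, rho = 0.87), Bnip3 with Ankrd37 (r = 0.88, rho = 0.88) and Ankrd37 with Adm (r = 0.88, rho = 0.87). Each of these had a permutation p of 0.00001, the smallest that the resamples can give, and an adjusted p of 2.50e-05. Vegfa followed Bnip3 at r = 0.79, Ankrd37 at 0.78 and Ndrg1 at 0.77.

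Leaving out the 2 tumors farthest from the median of the x axis gave 0.86 for Bnip3 with Adm, 0.86 for Bnip3 with Ankrd37 and 0.88 for Ankrd37 with Adm. After centring within treatment groups, r for these pairs was 0.89, 0.87 and 0.88, and all 28 pairs had an adjusted p under 0.05. Within single groups of 10 tumors, r for Bnip3 with Adm lay between 0.85 and 0.92. In 26 of the 28 pairs r was positive in each of the 5 groups, the exceptions being Vegfa with Car9 and Ndrg1 with P4ha1. The pair of Ndrg1 and P4ha1 depended on single tumors: r was 0.35 (adjusted p = 0.0183), rho was 0.26 (adjusted p = 0.0817), and r was 0.21 without X10_100 (adjusted p = 0.167, permutation test).

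The Pearson correlation of Hif1a RNA with that of the 8 targets was between -0.14 (Car9) and 0.28 (P4ha1), with a median of -0.01, and 0 of 8 had an adjusted p under 0.05 in the permutation test of r (1 of 8 at an unadjusted p under 0.05). For P4ha1, rho was 0.33 (adjusted p = 0.0262), and r was 0.38 without the 2 farthest tumors (adjusted p = 0.0117). P4ha1 was the member closest to Hif1a by rho, and it ranked 1687 among all other tested genes. In IGF1_160 the levels went apart: it had the highest Ankrd37 level of all tumors (19.6 RPKM), ranked 2 of 50 for Bnip3 (338 RPKM), Adm (30.9 RPKM) and Ndrg1 (699 RPKM), and had the lowest Hif1a level (36.9 RPKM). The tumor X10_100, at 150 RPKM, ranked 5 for Hif1a.

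Epas1 ran against the targets. All 8 correlations were negative, from -0.45 (Car9 and Egln3) to -0.11 (Ndrg1), and 6 of 8 had an adjusted p under 0.05. For Car9, r was -0.45 and rho was -0.45 (adjusted p = 0.00152 and 0.00166, permutation test), and for Egln3 r was -0.45 and rho was -0.44. Bnip3 and Ankrd37 had -0.39 and -0.40. Without the 2 farthest tumors r was -0.42 for Car9 and -0.41 for Egln3, and 5 of 8 kept an adjusted p under 0.05, Adm being the one that did not (r = -0.30, adjusted p = 0.0540). After centring within groups the 6 were the same in number, with -0.52 for Car9 and -0.50 for Egln3. With upper quartile scaling the relations of Epas1 with Adm and P4ha1 were no longer called. Hif1a and Epas1 had r = 0.33 and rho = 0.30 (adjusted p = 0.0268 and 0.0464), and 0.27 without the 2 farthest tumors (adjusted p = 0.0857).

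**Figure D3:**
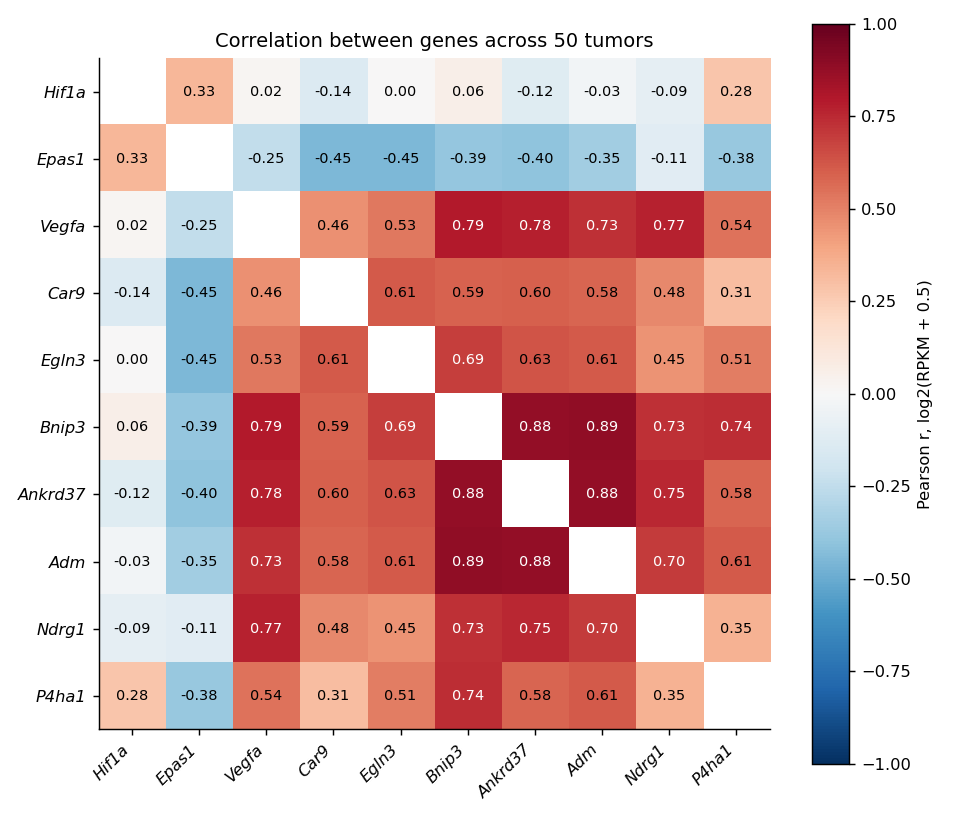
Pearson correlation of log2(RPKM + 0.5) for each pair of the 10 genes over 50 tumors, with red for positive and blue for negative values. The 8 target genes form a block of positive values up to 0.89. With the targets the Hif1a row runs from -0.14 to 0.28, the highest being P4ha1. The Epas1 row is negative down to -0.45 apart from its value of 0.33 with Hif1a.

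**Figure D4:**
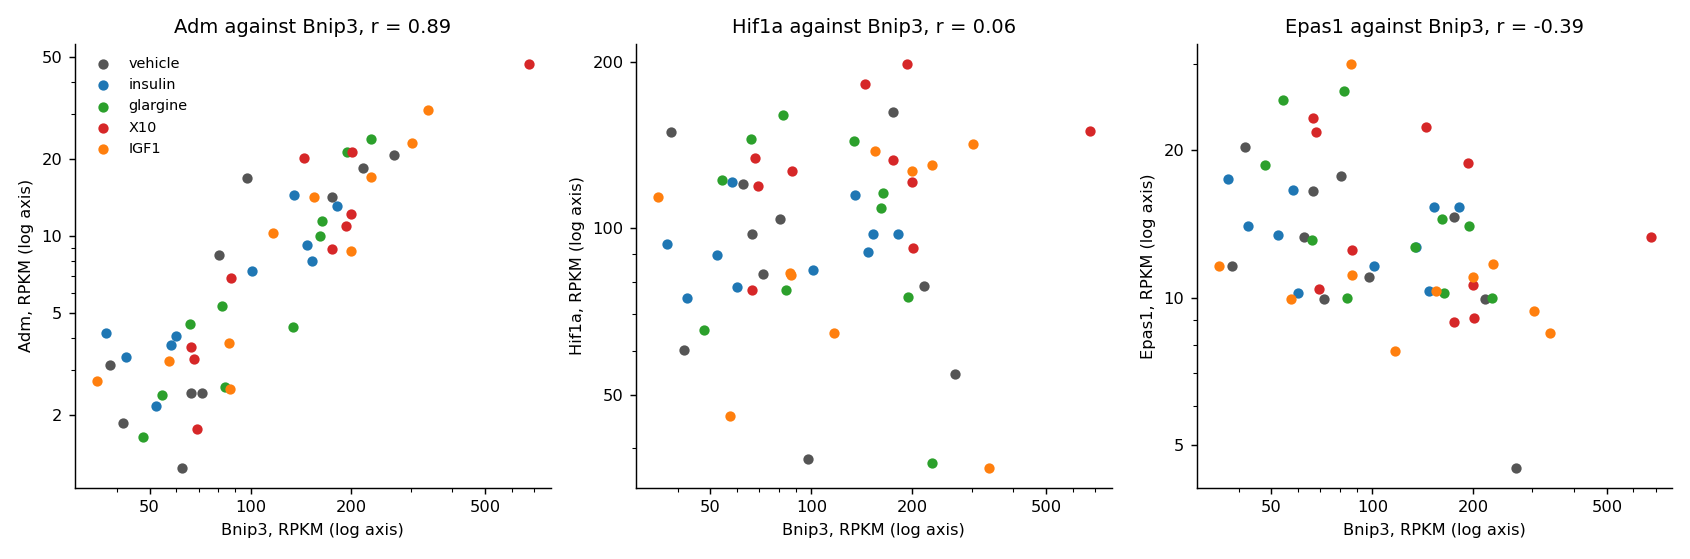
Level of Adm, Hif1a and Epas1 against that of Bnip3, RPKM on log axes; each point is a tumor, coloured by treatment group. Adm rises with Bnip3 in all groups (r = 0.89), Hif1a does not (r = 0.06) and Epas1 tends to be lower where Bnip3 is higher (r = -0.39).

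Tumors could thus be described by how many of the 8 targets they had among the 10 highest levels of the 50. At least 6 of 8 were found there in 5 tumors, X10_100, IGF1_124, IGF1_147, IGF1_160 and Untreated_161, and the Hif1a ranks of these tumors ran from 5 to 50. X10_100, IGF1_147 and IGF1_160 each had 7 of 8. At the other end, at least 6 of 8 targets were among the 10 lowest in 2 tumors, insulin_9 and insulin_15. The limit of 6 matters at both ends. Untreated_182 and IGF1_135, with 5 of 8 among the lowest, had median target ranks of 46.5 and 45.0, beside 44.5 for insulin_9 and 46.0 for insulin_15. At the high end glargine_53, with 5 of 8, had a median target rank of 6.5, ahead of IGF1_124 and Untreated_161 (7.5 each). Untreated_161 also had the lowest Epas1 level of all tumors.

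The genes most like each member were then looked up among 16723 other tested genes by Spearman rho over the 50 tumors; this is a description, without a test. For Bnip3 they were Mgarp (0.89), a mitochondrial gene, Pdk1 (0.86), the kinase that shuts off pyruvate dehydrogenase, and Eno2 (0.84), a glycolytic enzyme. For Adm they were Ero1l (0.84), an oxidase of disulphide formation, Slc2a1 (0.84), the glucose transporter, and Unc13a (0.80). Unc13a (0.86), Slc2a1 (0.84) and Ero1l (0.83) were also the nearest of Ankrd37. Vegfa was nearest to Unc13a (0.78), Kcne3 (0.78) and Pgf (0.76), the gene of placental growth factor, another ligand of the same family. Car9 was nearest to Gm16754 (0.71), Ldha (0.69) and Pfkl (0.66), of which the last pair are glycolytic enzymes, and Egln3 to Mgarp (0.78), Eno2 (0.69) and Gm16754 (0.69). Ndrg1 was nearest to Smox, Ier3 and Gm16754 (0.76 each), and P4ha1 to Pdk1 (0.70), Ero1l (0.66) and Ak4 (0.65).

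The lowest values were -0.73 for Ankrd37 (Tril), -0.73 for Adm (Fam53b), -0.76 for Vegfa (Isoc1), -0.74 for Ndrg1 (Tubd1), -0.64 for Car9 (Gm6425), -0.60 for Egln3 (Trbv5) and -0.62 for P4ha1 (Faah). For Ankrd37 and Adm, Bnip3 itself ranked 1 among all other tested genes. Of the 36 other known targets, 33 had a positive rho with Bnip3, with a median of 0.57 where the median over all tested genes was -0.08. Pdk1, Slc2a1, Ero1l, Pgk1, Ldha and Slc16a3 were at 0.80 or above, whereas Edn1 (-0.14), Angptl4 (-0.07) and Pfkfb4 were not above 0. With Hif1a 26 of the same 36 genes had a positive rho, with a median of 0.10 (all tested genes -0.03), from -0.42 (Edn1) to 0.68 for Plod2, a collagen lysyl hydroxylase. With Epas1 13 of the 36 were positive, with a median of -0.10 (all tested genes -0.01). Of the regulators, Egln1, the main oxygen-sensing hydroxylase, had a rho of 0.75 with Bnip3, whereas Arnt, the partner subunit, had 0.02 and Vhl 0.18.

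The genes nearest to Epas1 were Jam2 (0.67), a junction protein of endothelium, Fzd4 (0.66) and Pde3a (0.66), and the lowest was Pdap1 (-0.68). The VEGF ligands and receptors ran from -0.26 (Pgf) to 0.49 (Kdr, the main receptor of Vegfa on endothelial cells) with Epas1, with a median of 0.11. The 3 adrenomedullin receptor genes ran from -0.22 (Ramp3) to 0.59 (Calcrl). With Bnip3 the order in each list was reversed at its ends, from -0.45 (Kdr) to 0.74 (Pgf) and from -0.42 (Calcrl) to 0.40 (Ramp3). Flt1, another receptor of Vegfa, had a rho of 0.59 with Bnip3 and 0.05 with Epas1.

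The genes nearest to Hif1a were Map4k5 (0.84), Sec23a (0.81) and Strn3 (0.78), and the lowest was Dxo (-0.80). Map4k5 (69803750 to 69893200), Sec23a (58958383 to 59012017) and Strn3 (51609632 to 51691897) are on chromosome 12, as is Hif1a. This was followed up for all 10 genes, a step chosen after these values were seen. Of the 50 genes most like Hif1a, 40 were on chromosome 12, which carries 594 (3.59%) of the 16541 other tested genes with a known place. Within groups of 10 tumors the count was 22 with vehicle, 13 with glargine, 9 with IGF1 and 1 each with insulin and X10. For the other 9 members, between 3 and 8 of the 50 nearest genes were on the member's own chromosome, which carried 3.59% to 6.98% of the genes. The median rho with Hif1a was 0.39 for the 18 genes of chromosome 12 within 2 Mb, 0.32 for the 94 from 2 to 10 Mb away, 0.29 for the 100 from 10 to 20 Mb, 0.11 for the 202 from 20 to 40 Mb and 0.09 for the 180 beyond. On the other chromosomes it was -0.04. Egln3, which lies on chromosome 12 too, had a rho of 0.10 with Hif1a and 3 of its 50 nearest genes on that chromosome.

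The level of the rest of chromosome 12 in a tumor was summarised as the median, over these 594 genes, of log2 level relative to each gene's mean. Hif1a correlated with it at r = 0.64 and rho = 0.61 over the 50 tumors. This restates the pattern that prompted it and is given without a test. The value was 0.56 without the 2 farthest tumors and 0.64 after centring within groups. For the other 9 members r with their own chromosome was between -0.17 and 0.26. Within groups, r for Hif1a was 0.88 with vehicle, 0.85 with glargine and 0.79 with IGF1, but -0.36 with insulin and -0.29 with X10 (n = 10 each). The relation therefore did not hold within every group, and whether the groups differ in it was not tested. The chromosome 12 level spanned -0.14 to 0.07 in the insulin tumors and -0.48 to 0.24 in the vehicle tumors. Its median was 0.01 with X10 and -0.09 with vehicle, beside the higher Hif1a level with X10, and its part in that difference was not tested.

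**Figure D5:**
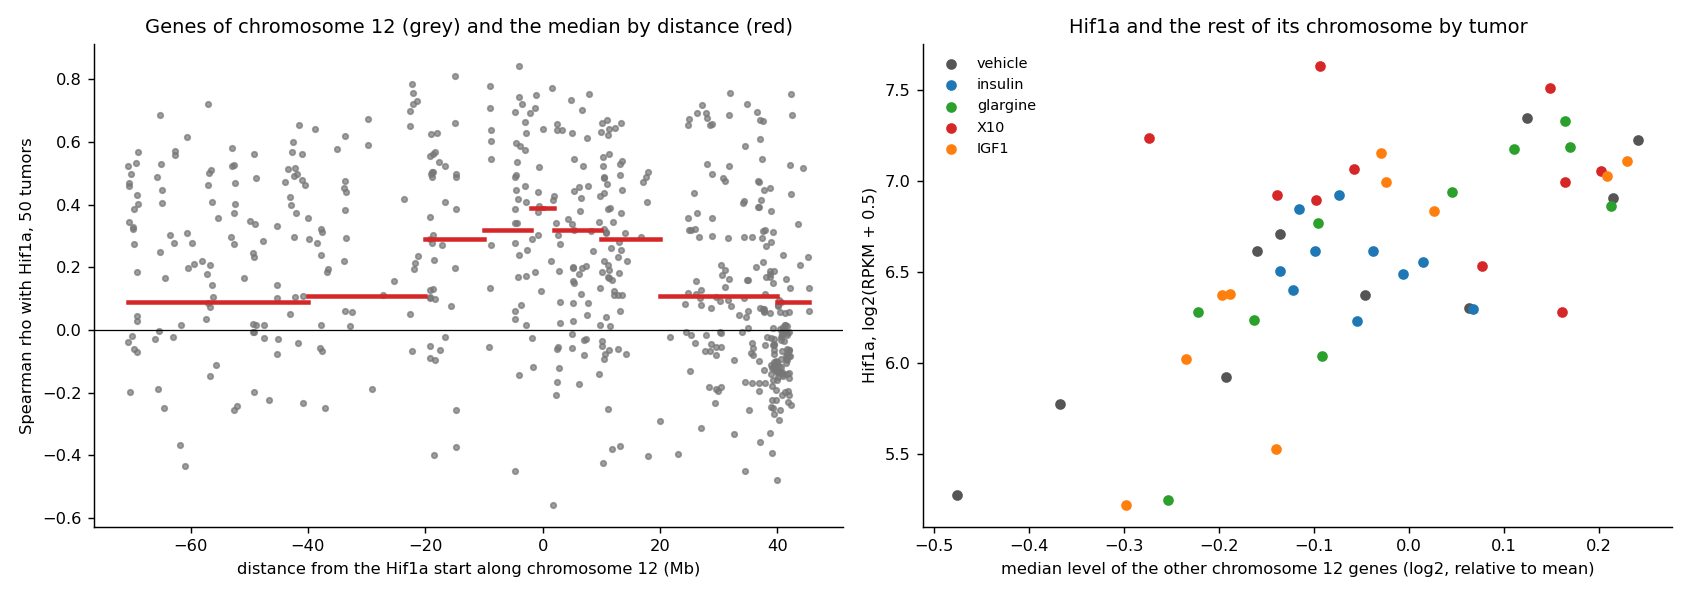
Left, Spearman rho with Hif1a over 50 tumors for 594 genes of chromosome 12 against their distance from the Hif1a start in Mb, with red bars for the median by distance class (0.39 within 2 Mb, 0.09 beyond 40 Mb). Right, Hif1a log2 level against the median level of the other chromosome 12 genes; each point is a tumor, coloured by group, and r is 0.64.

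Summed marker levels of 8 cell types were set beside the 10 genes, as 80 relations. An adjusted p under 0.05 was reached by 4 (two-sided permutation test with 100000 resamples). Without the 2 farthest tumors 2 relations reached it, Car9 with the epithelial markers and, not among the 4, Epas1 with the endothelial markers. Car9 followed the epithelial markers at r = 0.47 and rho = 0.46 (adjusted p = 0.0128 and 0.0172), with r = 0.46 without the 2 farthest tumors. The neutrophil markers (S100a8, S100a9, Cxcr2 and Csf3r), whose sum ranged from 14.4 to 2639 RPKM over the tumors, went with Ndrg1 (r = 0.50, rho = 0.46), Vegfa (r = 0.48, rho = 0.49) and Ankrd37 (r = 0.46, rho = 0.46). Without the 2 farthest tumors these were 0.39, 0.43 and 0.39, with adjusted p of 0.0861, 0.0552 and 0.0861 (permutation test). In all 4 relations r had the same sign in the 5 groups. Endothelial markers (Pecam1, Cdh5, Cldn5, Emcn, Tek and Tie1), whose sum ranged from 54.2 to 183 RPKM with none at 0, had correlations between -0.21 and 0.27 with the 10 genes. The highest was that of Epas1 (r = 0.27, rho = 0.31, adjusted p = 0.287 and 0.237), which was 0.50 without the 2 farthest tumors (adjusted p = 0.0248, permutation test). With all 50 tumors Epas1 was closer to the adipocyte markers (r = 0.41, rho = 0.32, adjusted p = 0.0515 and 0.237), positively in all 5 groups, with r = 0.37 without the 2 farthest tumors (adjusted p = 0.109, permutation test). Fibroblast markers had correlations between -0.13 and 0.14. The part of these cell types in the levels was not tested beyond these relations and the fit with marker scores, in which 0 of the 10 genes were called.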

How the data were processed

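RNA of 50 tumors was Poly-A selected and sequenced on the Ion Proton. According to the submitters' processing notes, TopHat2 2.0.10 and Bowtie2 placed the reads on GRCm38 and HTSeq 0.6.1 counted them. The authors deposited RPKM values (reads scaled to library size and gene length); their DESeq2 1.2.10 results were not used here. Samples were grouped by title, and 0 value columns were left out. From the steps in the RPKM values, which are whole multiples of what 1 read is worth in a library, reads and gene lengths were recovered; in each tumor at least 96.7% of low values were whole reads. The scale of each library was chosen to make that share high. In a simulation of 12000 genes 99.6% of reads were recovered exactly. It was built on the recovered lengths, reads and library sizes, so it checks the method on its own model and not the deposited values.

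Groups were compared with limma 3.58.1 (R 4.3.3) on log2(RPKM + 0.5), with all 5 groups in the fit, an intensity trend, a filter that kept the 16733 genes whose mean reached 0.5 RPKM (all 10 members among them) and Benjamini-Hochberg adjustment over them. The pseudocount understates changes of genes with low values. In data simulated for X10 against vehicle over 16733 genes, 79% of changes of a log2 fold change of 1 and 94% of those of 2 were found, with 13 false calls. The changed genes were drawn from all tested genes, and their noise was independent. These percentages do not hold for the 10 members, all of which had an SD of log2 level above the median of all tested genes. Permutation tests used 100000 resamples in Python 3.11.15 with numpy 2.4.6 and scipy 1.17.1. Gene places came from GENCODE M21 (GRCm38), and promoter sequences from RefSeq (GRCm38.p6). Precision is limited by the number of tumors; nothing in the labels says that 2 tumors came from the same mouse.

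The genes named are the 10 members; of the lists, in each comparison, the 3 with the smallest p where none was called; and for each member the 3 genes with the highest Spearman rho and the lowest, of which 1 is not reported here. Genes of the lists named for their rho were chosen after their values were seen. The members and lists were chosen with earlier results of these data known. Alternatives were pseudocounts of 0.1 and 1, other filters and scalings, no trend, fewer groups in the fit, voom on recovered reads and endothelial, epithelial and adipocyte marker scores as covariates. Added after seeing the data were library size as a covariate, leaving out X10_100 or insulin_13, and the settings of the chromosome 12 count.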

Additional observations from a re-analysis of the deposited data

Results flagged for a closer look

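In each of the 50 sets of 10 tumors (10 genes in 5 groups), the highest and lowest tumor were compared with their nearest neighbour by Dixon's ratio on the log2 scale, at its 95% critical value. Chance alone marks about 1 in 20 groups, and 4 of the 50 had a value that stood apart, in 3 tumors. For Bnip3, the X10 group held 1 tumor, X10_100, at 676 RPKM where the next had 201 (ratio 0.523). The same tumor had 1720 RPKM of Ndrg1, the next X10 tumor having 484 (ratio 0.574). For Epas1, IGF1_158 had 30.0 RPKM, with the next IGF1 tumor at 11.7 (ratio 0.701), and Untreated_161 had 4.49 RPKM, with the next lowest vehicle tumor at 9.91 (ratio 0.515). On RPKM without log, 8 values stood apart.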

How the results depend on the processing

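Of 690 recomputed log2 fold changes of the 10 genes, 680 kept their direction and their side of the threshold and 10 changed sign, from -0.21 to 0.09 for Vegfa with glargine and from -0.10 to 0.21 for Car9 with IGF1 at the most. In all 82 recomputed counts, 0 of the 10 genes were called, as before. The signs that changed were, for insulin, Adm with a pseudocount of 1, quantile normalization or median-of-ratios scaling (-0.02 each), P4ha1 with quantile normalization (0.00) and Egln3 with library size as a covariate (0.04). With marker scores as covariates they were Vegfa (0.09) and P4ha1 (0.04) for glargine and Hif1a (-0.18) and Car9 (0.21) for IGF1, and with median-of-ratios scaling Hif1a for IGF1 (-0.01). Of 270 recomputed pair correlations, 252 kept sign and side. Those that changed sign all involved Hif1a: centred within groups with Vegfa (-0.03), Egln3 (-0.05) and Bnip3 (-0.01), without X10_100 with the same genes (-0.04, -0.02 and -0.00), with upper quartile scaling Adm (0.03), and without the 2 farthest tumors Ankrd37 (0.07), Adm (0.17) and Ndrg1 (0.04). With upper quartile scaling Epas1 lost its calls with Adm (-0.29) and P4ha1 (-0.28), and 7 marker relations were called in place of 4 (2 without the 2 farthest tumors). On RPKM without log, 8 values stood apart in place of 4.

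Counts over all tested genes were less stable. For insulin they were 2 in place of 0 with a mean of at least 5 RPKM, quantile normalization, upper quartile scaling, median-of-ratios scaling and library size as a covariate. For X10 (11) they were 24 with no filter, 7 with median-of-ratios scaling, 4 with only the groups compared and 1 with library size as a covariate. For IGF1 (1) they were 0 with a mean of at least 5 RPKM, only the groups compared and marker scores. For the pooled comparison (26) they were 11 with no filter, 17 with a mean of at least 5 RPKM, 51 with upper quartile scaling, 16 with voom and 12 with library size, and leaving out X10_100 or insulin_13 gave 60 and 54. For any difference (17) they were 0 with no filter or library size, 6 with quantile normalization or marker scores, 2 with median-of-ratios scaling and 5 with voom, and 13 and 29 without X10_100 or insulin_13. The cause of these shifts was not tested. The number of the 50 genes most like Hif1a that lie on chromosome 12 (40) was between 29 and 42 under 8 other settings. No paired analysis was possible because the groups compared share no replicate numbers.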
